A study of Bos taurus with 16 samples.

Results

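The cell cycle and mitosis genes described here are the spotted cDNA features whose gene symbol in the array's annotation belongs to the CDC, CDK, cyclin (CCNA to CCNL), MCM, CENP, KIF, BUB, AURK or ORC series, or is PCLAF, PCNA or WEE1; CDC42 itself was left out. The rule took 64 features of 53 genes, out of 8448 features on the array, of which 5693 had a listed gene. They were measured in kidney RNA of cattle (Bos taurus) that had been used as isolated (round 0) or after linear amplification for 1, 2 or 3 rounds. Each round had 2 RNAs, called replicates 1 and K, and each of these 8 RNAs was hybridised on 2 arrays of opposite dye against a common reference RNA that had itself been amplified for 2 rounds, giving 16 arrays. The labels name the sources Kidney 1 and Kidney K at every round, but give no animal, age or sex. They do not say whether 1 and K are animals or technical repeats, and do not name the tissue of the reference. At round 0, which was not amplified, 1 and K cannot be repeat amplifications. P-values therefore speak of these 8 RNAs, and the spread of these RNAs may be technical. The series' title places it as a test of linear amplification for material as scarce as single embryos, and the comparisons ask whether ratios hold over the rounds. Kidney and reference had passed through the same number of amplifications at round 2 only.

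Dividing cells pass through a phase of DNA synthesis and a phase of mitosis, separated by gaps. Replication origins are marked by the origin recognition complex and opened by the MCM helicase, and the new strands are made on the sliding clamp PCNA. Cyclins switch on the cyclin-dependent kinases (CDKs) that drive these steps, WEE1 restrains the mitotic kinase, CENP proteins build the centromere and kinetochore, BUB proteins hold the cycle until chromosomes are attached, and CDC20 starts chromosome separation through the anaphase-promoting complex. Most of these transcripts are abundant where cells divide, and the epithelium of the adult kidney is known to divide slowly. Gene names also gather unlike functions: CDK9, cyclin L, CDC5L and CDC40 act in transcription or splicing, several kinesins move cargo, and the CDC42 effectors serve the cytoskeleton.

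By such textbook roles, 36 features of 31 genes were those of the cell cycle itself and 28 features of 22 genes matched by name only. Of the 64 features, 62 were measured in both replicates at all 4 rounds and were tested, 35 of the cell cycle genes and 27 of the name matches. The second clone of CCNA1 and the single clone of KIF13B, a transport kinesin, lacked a value in round 3, replicate 1. Values are log2 ratios of kidney over reference after centring each array on its median listed feature, so that 0 is the level of the median gene and a negative value means less in kidney. The direction is likely and not certain: the files do not say which dye stands on top, and it was set so that kidney tubule genes lie above the reference, which they then did on all 16 arrays, with list medians of 2.39 to 3.35. If the dyes stood the other way, every sign against the reference and between rounds would turn.

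On each array, 83.8% to 95.03% of the spots had a ratio; precision is limited by how many arrays there are. Duplicate spots of an array correlated at Pearson r of 0.496 to 0.822 across features. Across the 62 tested members, replicates 1 and K correlated at 0.904 at round 0, 0.805 at round 1, 0.822 at round 2 and 0.717 at round 3, as a description over features that share arrays. Their median difference between replicates was 0.222, 0.367, 0.416 and 0.380 log2 units at rounds 0, 1, 2 and 3, beside 0.211, 0.368, 0.331 and 0.330 over all tested features. The arrays of a dye swap ran together least for round 1, replicate K, where the turned ratios of the members correlated at 0.170, against up to 0.791 in the other RNAs.

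In kidney, genes of the cell cycle itself were called below the reference far more often than above it, and the name matches were not. Among the 62 tested members, 21 were below and 8 above the reference at round 0, with limma at an adjusted p under 0.05, where 19.1% and 19.6% of all 5537 tested features were. At round 1, 17 were below and 8 above, beside 20.9% and 16.9% of all features. At round 2, 19 were below and 6 above, beside 18.6% and 16.6%. At round 3, 21 were below and 7 above, beside 18.4% and 16.7%. In percent of members, the share below was 33.9, 27.4, 30.6 and 33.9 over rounds 0 to 3.

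The cell cycle genes made up most of the low calls. Of their 35 features, 19, 15, 14 and 18 were below the reference at rounds 0, 1, 2 and 3, and 1, 2, 2 and 2 above. The count below at round 0 was 12 when either round 0 RNA was left out, and that at round 1 was 9 in a fit of that round alone. Their median log2 ratio was -0.92, -0.55, -0.75 and -1.07, beside -0.02, 0.04, 0.02 and 0.01 over all tested features. Of the 27 features matched by name only, 2, 2, 5 and 3 were below and 7, 6, 4 and 5 above, with medians of 0.40, 0.40, 0.21 and 0.13. The difference between these subsets was not tested, since the subsets were drawn with earlier results of these data known. In bulk RNA, fewer dividing cells and less of a transcript per cell cannot be told apart.

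**Figure D1:**
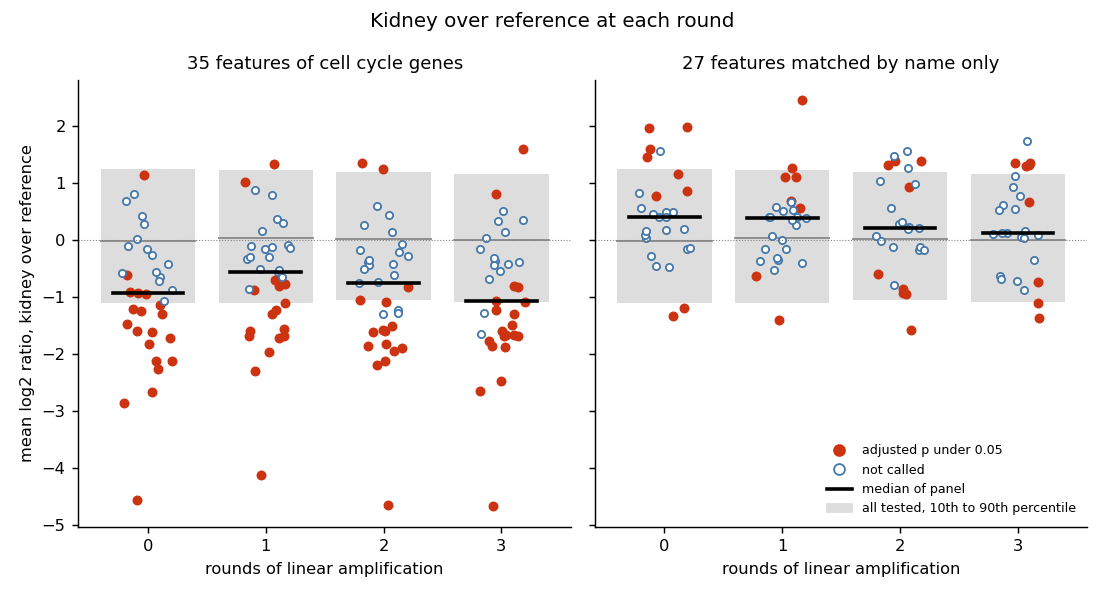
Mean log2 ratio of kidney over reference (y axis) at 0 to 3 rounds of amplification (x axis), each point 1 feature, with cell cycle genes in the left panel and name matches in the right. Filled red points passed an adjusted p under 0.05, the black bar is the panel's median and the grey box spans the 10th to 90th percentile of all tested features; the cell cycle medians sit at -0.92, -0.55, -0.75 and -1.07, while those of the name matches sit between 0.13 and 0.40.

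Without centring, the arrays' own medians enter every value: the median of all tested features then was 0.65, -0.30, 0.59 and 0.32 at rounds 0 to 3, and that of the cell cycle features -0.23, -0.89, -0.17 and -0.66. The median of the cell cycle features was below that of all features at every round under both scalings. The balance of calls over all members turned at round 0, with 7 below and 16 above without centring, and was 18 and 3 at round 1, 11 and 11 at round 2, and 13 and 7 at round 3. Of the cell cycle features, 7, 16, 10 and 12 were below without centring at rounds 0 to 3, and 2, 1, 3 and 2 above. Of the features called at all rounds, WEE1 (round 2), MCM7 (rounds 0, 2 and 3), CENPA, CENPH, CENPS and the second clones of BUB3 and CDC42EP3 (round 0), the first BUB3 clone (rounds 0 and 3), and CDC14B, CCNL2 and the second KIF3B clone and the third (round 1) lost calls without centring. All levels here are therefore relative to the median gene of an array.

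Over the rounds, 13 member features were below the reference at all 4 rounds and 5 were above at all 4, which among all tested features 7.89% and 6.63% were. All but 1 of the 13 low features belong to cell cycle genes: WEE1, CDC20, MCM2, MCM4, MCM7, PCNA, PCLAF, CENPA, CENPH, CENPS and both clones of BUB3. The other is a clone of CDC42EP3. The 5 high features are 3 clones of KIF3B and 1 each of CCNL2 and CDC14B. No call on either side was made at any round for 19 of the 62 features, beside 1953 of all 5537 tested features. Only CDC5L was called on opposite sides at different rounds, as were 203 of the 5537.

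**Figure D2:**
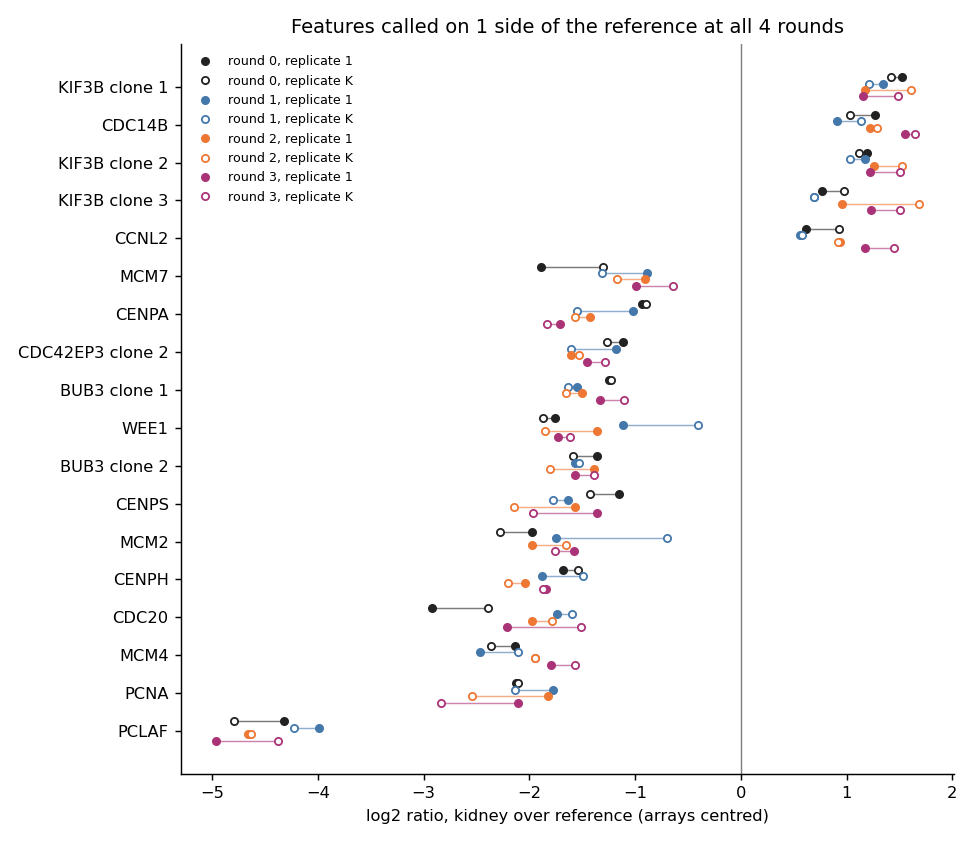
Log2 ratio of kidney over reference (x axis) in each RNA for the 18 features that were called above the reference, or below it, throughout (y axis), with rounds 0 to 3 from top to bottom within a feature, replicate 1 as filled and replicate K as open circles joined by a line. PCLAF stands apart near -4 to -5, the other 12 low features lie between -0.41 and -2.92, and the 5 high features between 0.56 and 1.69.

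Replication genes were below the reference, with the lowest member among them. PCLAF, a small PCNA-binding protein made in S phase, had the lowest value of all members at every round. Its log2 ratios, with replicate 1 before K in this and the following sentences, were -4.33 and -4.79 at round 0, -3.99 and -4.23 at round 1, -4.67 and -4.63 at round 2 and -4.96 and -4.38 at round 3. All 8 values were below those of any other member in the same RNA, and kidney was 23.6-, 17.3-, 25.1- and 25.5-fold lower than the reference at rounds 0, 1, 2 and 3, with adjusted p-values of 7.17e-05 to 0.000132. Its partner PCNA, the sliding clamp of DNA polymerases, had -2.13 and -2.11 at round 0, -1.77 and -2.14 at round 1, -1.83 and -2.55 at round 2 and -2.11 and -2.84 at round 3. All 8 PCNA values were negative, with kidney 4.35-, 3.88-, 4.55- and 5.55-fold lower and adjusted p-values of 0.000906 to 0.00196.

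The MCM genes encode subunits of the helicase that unwinds DNA at the fork. MCM4 had -2.14 and -2.36 at round 0, -2.47 and -2.11 at round 1, -1.95 and -1.95 at round 2 and -1.80 and -1.57 at round 3, which is 4.75-, 4.89-, 3.86- and 3.21-fold lower in kidney (adjusted p 0.000248 to 0.000753). MCM2 had -1.97 and -2.28 at round 0, -1.75 and -0.70 at round 1, -1.98 and -1.65 at round 2 and -1.57 and -1.76 at round 3, and its round 1, replicate K value stood apart from the other 7. In means, MCM2 was 4.36-, 2.33-, 3.52- and 3.17-fold lower (adjusted p 0.00166 to 0.0128), and its call at round 1 was lost without round 1, replicate 1 and that at round 3 without round 3, replicate K, each of which leaves 1 RNA in that round. MCM7 had -1.89 and -1.30 at round 0, -0.89 and -1.32 at round 1, -0.91 and -1.18 at round 2 and -1.0 and -0.65 at round 3, the smallest deficit of the 3 helicase subunits at every round. It was 3.02-, 2.15-, 2.06- and 1.77-fold lower (adjusted p 0.00217 to 0.0255), and its calls at rounds 1, 2 and 3 were lost when 1 RNA of the same round was left out, with adjusted p up to 0.195.

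ORC6, a subunit of the origin recognition complex, was negative in all 8 RNAs, from -0.16 to -1.40, but was below the reference by the test at round 1 only (adjusted p = 0.0473). The 2 clones of MCM3AP, an mRNA export scaffold named for binding an MCM subunit, stayed near 0, between -0.78 and 0.58, with 1 clone called below at round 1. Among the 6 features of replication genes proper, 5, 6, 5 and 5 were below the reference at rounds 0 to 3 and 0 were above.

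Centromere and checkpoint genes showed the same side of the reference. CENPA, the histone H3 variant that marks the centromere, had -0.93 and -0.90 at round 0, -1.02 and -1.55 at round 1, -1.43 and -1.57 at round 2 and -1.71 and -1.84 at round 3. Both replicates of rounds 2 and 3 were lower than both of round 0, although the difference between rounds 3 and 0, -0.86 ± 0.24 (SE), had an adjusted p of 0.0685. CENPA was 1.89-, 2.43-, 2.83- and 3.42-fold lower in kidney (adjusted p 0.00078 to 0.00764), and its round 0 call was lost without either round 0 replicate. CENPH, a protein of the inner kinetochore, had -1.68 and -1.54 at round 0, -1.88 and -1.49 at round 1, -2.04 and -2.20 at round 2 and -1.84 and -1.87 at round 3. All 8 values were negative, and kidney was 3.05-, 3.22-, 4.36- and 3.62-fold lower (adjusted p 0.000288 to 0.000728).

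CENPS, another protein of the inner kinetochore with a further role in DNA repair, had -1.16 and -1.43 at round 0, -1.64 and -1.78 at round 1, -1.57 and -2.15 at round 2 and -1.36 and -1.97 at round 3. Kidney was 2.45-, 3.27-, 3.63- and 3.17-fold lower for CENPS (adjusted p 0.00146 to 0.00538), and the round 0 call was lost without replicate K of that round. BUB3, which carries checkpoint proteins to unattached kinetochores, was printed as 2 clones. The first BUB3 clone had -1.25 and -1.23 at round 0, -1.55 and -1.64 at round 1, -1.51 and -1.65 at round 2 and -1.33 and -1.10 at round 3, and was 2.36-, 3.02-, 2.99- and 2.32-fold lower (adjusted p 0.000593 to 0.00148). The second BUB3 clone had -1.37 and -1.59 at round 0, -1.57 and -1.53 at round 1, -1.39 and -1.80 at round 2 and -1.57 and -1.39 at round 3, and was 2.78-, 2.93-, 3.02- and 2.79-fold lower (adjusted p 0.000906 to 0.00124). The round means of the BUB3 clones differed by 0.01 to 0.26 log2 units, so that separate cDNAs of the gene gave like ratios.

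The other 4 CENP genes were less uniform. CENPJ, a centriole assembly protein, was negative in all 8 RNAs and was called below at rounds 0, 1 and 2, with means of -0.94, -0.81, -1.08 and -0.41. In the amplified rounds its ratios ran from -0.273 to 0.187 with kidney in Cy3 and from -2.501 to -0.525 with kidney in Cy5. Its calls at rounds 1 and 2 therefore rested mostly on the Cy5 arrays, and its value at round 0, replicate 1 came from 1 array. CENPB, which binds centromeric DNA, and CENPV had means of -0.42 and -0.71 at round 0 and of 0.15 and 0.34 at round 3, with no call at any round. CENPT, a protein of the inner kinetochore, was called at round 0 only, where its replicates were far apart at -4.06 and -1.63. Over the centromere and checkpoint features, 7, 6, 6 and 5 of 9 were below at rounds 0 to 3 and 0 above.

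Genes that act in mitosis itself differed in how steadily they were measured. CDC20, the activator of the anaphase-promoting complex, had -2.92 and -2.40 at round 0, -1.74 and -1.60 at round 1, -1.98 and -1.79 at round 2 and -2.21 and -1.52 at round 3. Every amplified RNA was higher than both round 0 RNAs, but the differences of 0.99 ± 0.31, 0.78 ± 0.31 and 0.79 ± 0.31 (SE) at rounds 1, 2 and 3 had adjusted p-values of 0.0872, 0.149 and 0.141. CDC20 was 6.32-, 3.18-, 3.69- and 3.64-fold lower in kidney than in the reference (adjusted p 0.000414 to 0.00215). The subunits of that complex had smaller deficits: CDC23 had means of -0.64, -0.51, -0.82 and -0.80 with calls at rounds 2 and 3, and CDC26 had -0.88, -0.15, -0.61 and -1.07 with a call at round 3.

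The motors and kinases of mitosis were called at 1 or 2 of the 4 rounds. KIF4A, a kinesin that acts on chromosome arms and the spindle midzone, had -1.06 and -1.35 at round 0, -0.27 and 0.05 at round 1, -0.28 and -1.21 at round 2 and -2.10 and -1.10 at round 3, and was below at rounds 0 and 3. Its ratios depended on the dye: at round 3 they were -0.915 and -0.429 with kidney in Cy3, and -3.277 and -1.769 in Cy5. In replicate K, the dyes gave opposite signs at round 1 (1.526 in Cy3, -1.434 in Cy5) and round 2 (0.776 in Cy3, -3.206 in Cy5). KIF2C, a centromeric kinesin that takes microtubules apart, was below at round 0 only, with -1.08 and -2.33. AURKB, the kinase of the chromosomal passenger complex, was negative in all 8 RNAs. Its call at round 3 rests on -4.28 in replicate 1, a value from 1 array only, against -1.03 in replicate K. KIF2C and AURKB had a ratio in 24 and 26 of 32 spots, fewer than the 32 of the MCM, PCNA and PCLAF clones.

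One cell cycle gene lay on the other side at all rounds. CDC14B, a phosphatase that opposes CDK phosphorylation, had 1.27 and 1.03 at round 0, 0.91 and 1.14 at round 1, 1.22 and 1.29 at round 2 and 1.56 and 1.64 at round 3. All 8 values were positive, and kidney was 2.22-, 2.04-, 2.38- and 3.03-fold higher (adjusted p 0.000634 to 0.00275). Its call was lost at round 1 under 1 of 21 alternative settings, the fit without centring. CDC34, the ubiquitin-conjugating enzyme of SCF ligases, had means of 0.02, -0.32, -0.35 and -0.37 with no call.

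Of the 12 tested features of cyclins and kinases that act in the cell cycle, WEE1 was called below at all 4 rounds and the second CDK3 clone above at 3. WEE1, the kinase that holds CDK1 inactive, had -1.76 and -1.87 at round 0, -1.12 and -0.41 at round 1, -1.36 and -1.85 at round 2 and -1.73 and -1.62 at round 3, with round 1, replicate K nearest to 0. WEE1 was 3.52-, 1.7-, 3.05- and 3.19-fold lower in kidney (adjusted p 0.00145 to 0.0343), and its round 1 call was lost in 5 of 8 fits that left out an RNA (both of rounds 0 and 3, and round 1, replicate 1). CDK4, the kinase that acts with cyclin D in G1, was negative or at 0.01 in all RNAs of both clones: the first had means of -0.90, -0.69, -0.37 and -0.44 and the second -1.14, -0.64, -0.43 and -0.31. Both CDK4 clones were called below at round 0, the first at round 1 as well, and none at rounds 2 and 3. CDK2, the kinase of S phase, was called below for 1 clone at round 0 and for the other at round 3, and CDK6 and CDK7 at no round. The round 3 call of CDK2 rests on 0.345 in Cy3 and -1.721 in Cy5 for replicate 1, and on 1 array (-1.446) for replicate K.

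CCNE1, the cyclin that partners CDK2 at the start of S phase, had -1.60 and -0.53 at round 0, -1.31 and 0.20 at round 1, -1.31 and -1.13 at round 2 and -1.41 and -1.17 at round 3, and passed the test at round 3 only (adjusted p = 0.0444). CCND3, a D-type cyclin, was positive in all RNAs of rounds 0 and 1, from 0.63 to 1.01, and had no call. Its value at round 1, replicate K is the mean of 2.591 in Cy3 and -1.005 in Cy5. CCNA1, an A-type cyclin best known from the germ line, had values from -0.25 to 1.44 for its tested clone and no call. No feature that the rule took carried the symbol of a B-type cyclin, the type that acts in mitosis.

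The name matches called above the reference at all rounds were KIF3B and CCNL2. KIF3B, a subunit of the kinesin-2 motor that builds cilia, was printed as 3 clones, all above the reference at all 4 rounds. The first clone had 1.52 and 1.42 at round 0, 1.35 and 1.21 at round 1, 1.17 and 1.61 at round 2 and 1.16 and 1.49 at round 3, which is 2.77-, 2.42-, 2.63- and 2.5-fold higher in kidney (adjusted p 0.00132 to 0.00232). The second had 1.19 and 1.12 at round 0, 1.18 and 1.04 at round 1, 1.26 and 1.53 at round 2 and 1.22 and 1.51 at round 3, which is 2.23-, 2.15-, 2.62- and 2.58-fold higher (adjusted p 0.00116 to 0.00257). The third had 0.77 and 0.98 at round 0, 0.69 and 0.70 at round 1, 0.95 and 1.69 at round 2 and 1.23 and 1.5 at round 3, which is 1.83-, 1.62-, 2.5- and 2.58-fold higher (adjusted p 0.00369 to 0.0387). The clones differed by at most 0.60 in a round mean, and the third lost its round 1 call in 6 of 8 fits that left out an RNA (both of rounds 0, 1 and 3), its round 0 call without either replicate of that round and its round 3 call without replicate K.

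CCNL2, a cyclin of splicing and transcription, had 0.62 and 0.93 at round 0, 0.56 and 0.58 at round 1, 0.94 and 0.92 at round 2 and 1.17 and 1.45 at round 3. Kidney was 1.71-, 1.48-, 1.91- and 2.48-fold higher (adjusted p 0.00152 to 0.0284), both round 3 values were above all others, and its calls at rounds 0, 1 and 2 were each lost when 1 RNA of that round was left out. Its relative CCNL1 had like values on 2 clones, with means of 0.40, -0.36, -0.85 and -0.63 on the first and 0.50, -0.34, -0.92 and -0.71 on the second. Both CCNL1 clones were called below at round 2 only, and all 4 of their round 0 values were positive while all 12 later ones were negative. The difference of CCNL1 between an amplified round and round 0 did not pass the test on either clone.

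The CDC42 binders, which link the GTPase CDC42 to the actin cytoskeleton, were split. The second CDC42EP3 clone had -1.11 and -1.26 at round 0, -1.18 and -1.61 at round 1, -1.61 and -1.54 at round 2 and -1.46 and -1.28 at round 3, which is 2.28-, 2.63-, 2.97- and 2.58-fold lower (adjusted p 0.000907 to 0.0023). The first CDC42EP3 clone had -1.27 and -1.40 at round 0, -0.47 and 0.17 at round 1, 0.67 and -0.89 at round 2 and -0.67 and -1.06 at round 3, and was called at round 0 only. The 2 clones were up to 1.46 apart in a round mean, so that the gene's level depends on the clone. CDC42BPB, a kinase that binds CDC42, was above at round 0 (1.97 and 2.02) but had -0.79 and -0.46 in replicate K of rounds 1 and 3. The value at round 1 is the mean of 3.281 and -4.867 on arrays of opposite dye, and that at round 3 comes from 1 array. CDC42SE1, a small effector, was negative in all 8 RNAs and below at rounds 2 and 3.

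The remaining name matches were called at 1 round or none. KIF5B, the heavy chain of the kinesin-1 transport motor, was above at round 1, with 1.61 and 3.32, while its round 2 values were -2.15 and 0.59. At round 1, replicate K had 5.212 in Cy3 and 1.421 in Cy5, and replicate 1 had 1.886 and 1.33. CDK14 was below at round 2, with -0.81 and -1.09. No call was made at any round for CDK10, CDK16, CDK20, CDC37, CDC42BPG, CDC42EP2, both clones of CDC42SE2, AURKAIP1 or KIF16B, with round means between -0.68 and 1.74. The lowest of these means, that of CDC42EP2 at round 3, came from replicates as far apart as 1.28 and -2.65, the latter from 1 array. KIF13B and the second CCNA1 clone, which were not tested, had values from -1.44 to 1.51 and from -1.22 to 1.93 in 7 RNAs each.

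Few of these ratios differed between the amplified rounds and round 0. Against round 0, 1 member was higher and 1 lower at round 1, where 5.42% and 7.87% of all tested features were. At round 2, 1 was higher and 1 lower, beside 4.41% and 6.79%. At round 3, 0 were higher and 3 lower, beside 4.61% and 7.1%. A moderated F test over the 4 rounds called 1 of 62 members, CDC5L (adjusted p = 0.0291), beside 7.66% of all features. The calls fell on 4 features in all, CDK3, CDK9, CDC40 and CDC5L, and only CDK3 among them is counted with the cell cycle genes. The 3 comparisons share the round 0 RNAs.

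**Figure D3:**
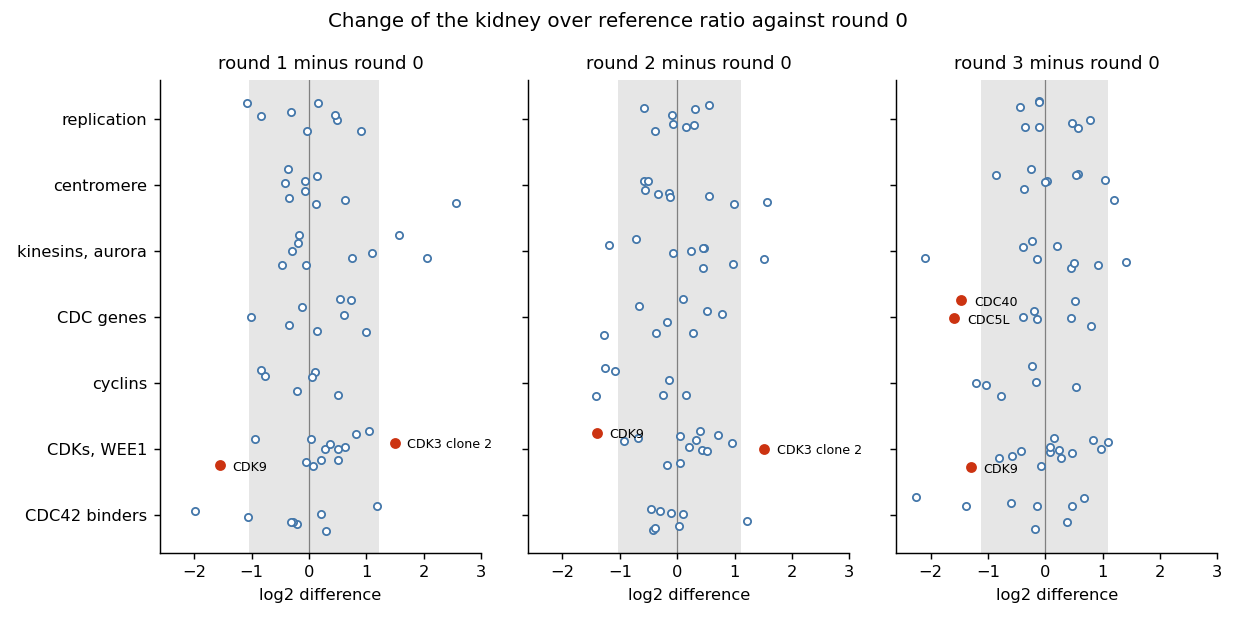
Log2 difference of the kidney over reference ratio from round 0 (x axis) at rounds 1, 2 and 3 (panels from left to right), each point 1 tested member in the row of its role, with the 10th to 90th percentile of all tested features in grey. Filled red points passed an adjusted p under 0.05: CDK9 is lower in all 3 panels, clone 2 of CDK3 higher in 2, and CDC40 and CDC5L lower at round 3.

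CDK9, the kinase that releases paused RNA polymerase II, fell in all 3 amplified rounds. Its log2 ratios were 2.13 and 1.80 at round 0, 0.31 and 0.51 at round 1, 0.78 and 0.35 at round 2 and 0.92 and 0.41 at round 3. All 6 amplified RNAs were below both round 0 RNAs, and the differences were -1.56 ± 0.28, -1.40 ± 0.28 and -1.30 ± 0.28 (SE) at rounds 1, 2 and 3 (adjusted p 0.0232, 0.0327 and 0.0373). The call at round 3 was lost whichever of the 8 RNAs was left out, with adjusted p up to 0.153, and those at rounds 1 and 2 without any 1 RNA of the rounds compared. Kidney was 3.9-fold above the reference for CDK9 at round 0, and 1.33-, 1.48- and 1.59-fold at rounds 1, 2 and 3.

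CDK3, a kinase of entry into the cell cycle, rose on its second clone. That clone had 0.04 and -0.35 at round 0, 1.58 and 1.09 at round 1, 1.30 and 1.42 at round 2 and 1.11 and 0.50 at round 3, and was above the reference at rounds 1, 2 and 3 (adjusted p 0.00454, 0.00459 and 0.0298) and not called at round 0. All 6 amplified RNAs were above both round 0 RNAs, with differences of 1.49 ± 0.31 and 1.52 ± 0.31 at rounds 1 and 2 (adjusted p 0.0318 and 0.0327) and of 0.96 ± 0.31 at round 3 (adjusted p 0.0892). The first CDK3 clone had -0.05 and 0.61 at round 0, 0.83 and -0.21 at round 1, 0.66 and 0.56 at round 2 and 0.51 and 0.21 at round 3, and its rounds overlapped. Its differences of 0.03 ± 0.40, 0.33 ± 0.40 and 0.08 ± 0.40 had adjusted p-values of 0.965, 0.615 and 0.912, so that the rise was seen on 1 of 2 clones. The difference between the clones was not tested. The call of the second clone at round 1 was lost without any single RNA of rounds 0, 1 or 2 and at round 2 without any of rounds 0 or 2, and the fit without centring gave 0.48 at round 1 (adjusted p = 0.401).

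CDC5L and CDC40, both proteins of the spliceosome, fell at round 3. CDC5L had 0.59 and 0.39 at round 0, 1.32 and 0.90 at round 1, -0.44 and 0.09 at round 2 and -0.90 and -1.30 at round 3. It was above the reference at round 1 (adjusted p = 0.00734) and below at round 3 (adjusted p = 0.00829), and its difference from round 0 was 0.62 ± 0.29, -0.67 ± 0.29 and -1.59 ± 0.29 at rounds 1, 2 and 3, of which only the last passed the test (adjusted p = 0.0257). CDC40 had 1.21 and 1.98 at round 0, 0.38 and 0.80 at round 1, 0.57 and 0.07 at round 2 and 0.28 and -0.01 at round 3. Its differences were -1.01 ± 0.35, -1.28 ± 0.35 and -1.46 ± 0.35, the last with an adjusted p of 0.0444. The CDC40 call was lost whichever RNA was left out, with adjusted p of 0.0594 to 0.171, and that of CDC5L without either RNA of round 0 or 3. The first printed spot alone gave -0.99 for CDC5L (adjusted p = 0.122) and the second -2.18, which passed the test. With kidney in Cy5, CDC5L had 0.465 and 0.552 at round 0 and -1.902 and -1.869 at round 3. With kidney in Cy3 it had 0.721 and 0.23, then 0.11 and -0.736, so that the size of the fall depended on the dye. For CDC40 at round 0, replicate K had 2.929 in Cy3 and 1.029 in Cy5, and replicate 1 had 1.329 and 1.098.

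**Figure D4:**
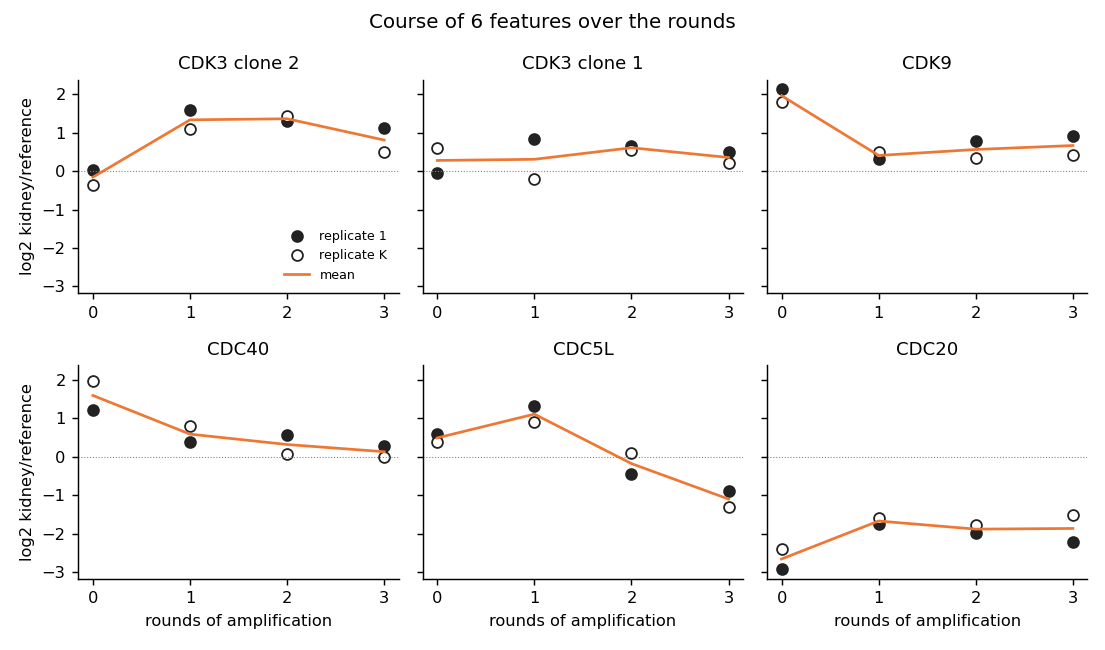
Log2 ratio of kidney over reference (y axis) against the rounds of amplification (x axis) for the 2 clones of CDK3, for CDK9, CDC40 and CDC5L, and for CDC20 as a member below the reference at all rounds. Filled circles are replicate 1, open circles replicate K and the line joins the means; the second CDK3 clone lies above its round 0 values in all amplified RNAs, CDK9 below, and CDC5L has means of 1.11 at round 1 and -1.10 at round 3.

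Between amplified rounds no member was called. Rounds 2 and 1 had 3 of 62 members at an unadjusted p under 0.05, rounds 3 and 1 had 11, and rounds 3 and 2 had 2, by limma. Of all 5537 tested features, 569, 1176 and 401 were under that threshold in the same comparisons. Among all tested features, 0% were called between rounds 2 and 1, 0.289% between rounds 3 and 1, all of them lower at round 3, and 0% between rounds 3 and 2. A fit of the 16 arrays with a dye term and the RNA as a random block called 3 members higher and 1 lower at round 3 against round 1.

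The deficit of the genes that were low throughout was compared between rounds as well. Over the 13 features below the reference at all rounds, the differences from round 0 ran from -0.42 to 1.05 at round 1, from -0.58 to 0.78 at round 2 and from -0.86 to 0.79 at round 3, and none passed the test. The 13 were chosen for a call below at every round, and a large move towards 0 would have removed a feature. That none passed therefore does not show that the deficit held. Unadjusted 95% intervals excluded 0 for 3, 2 and 4 of the 13 at rounds 1, 2 and 3. Of all 5537 tested features, 1762, 1710 and 1751 had an unadjusted p under 0.05 by limma in these comparisons. Among the 13, CDC20 was higher than at round 0 in all 3, and WEE1 and MCM2 were higher at round 1. MCM4 and MCM7 were higher at round 3, and CENPA was lower at rounds 2 and 3. For PCLAF the differences were 0.45, -0.09 and -0.11, with intervals of -0.24 to 1.13, -0.78 to 0.59 and -0.80 to 0.57. For the second BUB3 clone they were -0.07, -0.12 and -0.0034, with intervals of -0.63 to 0.48, -0.67 to 0.44 and -0.56 to 0.55. WEE1 moved the most of the 13, by 1.05 at round 1, with an interval of 0.32 to 1.79 and an adjusted p of 0.0734. The SE of a difference between rounds was 0.196 to 1.13 over the members, with a median of 0.308, and the smallest difference called among them was -1.30.

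Other genes of the cycle that the name rule does not reach were on the array as 50 tested features of 46 genes, from a list chosen with earlier results of these data known. Of these, 25, 18, 19 and 22 were below the reference at rounds 0 to 3 and 1, 3, 3 and 5 above, with medians of -0.72, -0.55, -0.56 and -0.55. Over all tested features, 19.1%, 20.9%, 18.6% and 18.4% were below and 19.6%, 16.9%, 16.6% and 16.7% above. The list was below at all 4 rounds in 16 features and above in 0, beside 7.89% and 6.63% of all tested features. Mitosis and cytokinesis genes had 12, 10, 10 and 11 of 18 features below, with medians of -1.5, -1.0, -1.41 and -1.35. DNA replication genes had 6, 4, 4 and 5 of 10 below. Genes of the ubiquitin ligases had 6, 2, 3 and 3 of 12 below, and inhibitors, Rb, E2F and checkpoint genes 1, 2, 2 and 3 of 10. In percent these were 50, 16.7, 25 and 25, and 10, 20, 20 and 30, near or under the share of all features at some rounds.

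Partners of the members described above were among them, and those named here were chosen after their values were seen. SPC24, a kinetochore protein, had -3.11 and -3.0 at round 0, -3.48 and -3.46 at round 1, -3.15 and -3.78 at round 2 and -3.77 and -3.88 at round 3. TPX2, a spindle assembly factor that activates aurora A, had -2.59 and -2.40 at round 0, -3.0 and -2.78 at round 1, -3.05 and -2.98 at round 2 and -2.68 and -2.69 at round 3. UBE2C, the ubiquitin-conjugating enzyme of the anaphase-promoting complex, had -2.59 and -2.50 at round 0, -1.82 and -1.93 at round 1, -1.23 and -1.62 at round 2 and -1.82 and -1.75 at round 3. All 3 were below the reference in all 8 RNAs and called at all 4 rounds, like CDC20. CDKN1A, an inhibitor that stops the cycle, was on the same side, with means of -2.14, -1.86, -1.73 and -2.46 and calls at all 4 rounds.

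Across amplification, this list had 6 features higher and 2 lower at round 1, 5 and 1 at round 2, and 2 and 0 at round 3 against round 0. Higher calls thus came to 12%, 10% and 4% of the list at rounds 1, 2 and 3, beside the 5.42%, 4.41% and 4.61% of all tested features, and lower calls to 4%, 2% and 0%, beside 7.87%, 6.79% and 7.1%. INCENP, the scaffold that holds AURKB at the centromere, had -1.62 and -1.39 at round 0, 2.46 and 1.17 at round 1, 0.98 and 1.11 at round 2 and 1.17 and 1.57 at round 3. It was below the reference at round 0 and above it at rounds 1, 2 and 3, with differences of 3.32 ± 0.43, 2.55 ± 0.43 and 2.87 ± 0.43 (SE; adjusted p 0.0108, 0.0205 and 0.0163). NCAPH, a subunit of condensin, was higher in all amplified rounds, by 1.37, 1.0 and 1.38 (adjusted p 0.0128, 0.0283 and 0.0135), but stayed below the reference throughout. Its values were -2.35 and -2.35 at round 0, -0.97 and -0.99 at round 1, -1.43 and -1.27 at round 2 and -0.91 and -1.04 at round 3. INCENP and NCAPH were the features of the list called in all 3 comparisons with round 0.

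Markers of other cells were measured on the same arrays, and their part in the results was not tested. Their counts stand beside 19.1%, 20.9%, 18.6% and 18.4% of all tested features below the reference at rounds 0 to 3 and 19.6%, 16.9%, 16.6% and 16.7% above. Of 10 tested features of lymphocyte and macrophage genes, which mark cells that can divide in tissue, 4 were below the reference at each round, and 0, 0, 1 and 0 above, with medians of -0.51, -0.59, -0.13 and -0.38. Of 15 features of stromal and endothelial genes, 7, 2, 2 and 4 were below and 7, 6, 4 and 5 above. Of 10 features of trophoblast genes, 4, 3, 3 and 3 were below and 0, 2, 0 and 1 above. The 3 below at all rounds were the keratins KRT8 and KRT18, the latter on 2 clones. A clone of PAG11 was below at round 0 and above at rounds 1 and 3, and PRP1 was above at round 1. The other tested PAG11 clones, CSH2 and TKDP1 had no call. Kidney tubule genes, whose side was used to set the direction, had 13, 12, 10 and 10 of 15 features above and 0, 0, 1 and 0 below. Round 0 arrays also differed from the rest in how their values were written: all of their ratios had 3 decimals, against at most 88.2% on an amplified array, so that a step of the authors' processing and amplification cannot be told apart in the comparisons with round 0.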

How the data were processed

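The measurements are 16 two-channel cDNA arrays of kidney RNA against a common reference. Per the labels' protocols, RNA was isolated with Trizol, amplified linearly for the stated rounds, reverse-transcribed with Superscript III and coupled to Cy3 or Cy5. The authors deposited log2 ratios between the dyes. The deposited column of the round 1, replicate 1, Cy3 array is called a score because it ends in 69 whole numbers that are no ratios; these were treated as missing and the rest used as log2 ratios. How the authors scanned, corrected and normalized the arrays is not stated in the labels or the file headers. Values beyond 10 in size, among them a recurring code for undefined ratios, were treated as missing.

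The 8448 features are printed as duplicates, which were averaged. All arrays were turned the same way, as kidney over reference. The median over features with a listed gene was subtracted from each, and both dye orientations of an RNA were averaged. Comparisons used R 4.3.3 with the packages limma (version 3.58.1) and data.table (version 1.17.8): lmFit, then eBayes (round means as coefficients, 4 residual and 2.4 prior degrees of freedom). P-values were adjusted after Benjamini and Hochberg over 5537 features, those with a listed gene and no round in which a replicate was missing. Adjusted p-values are from this fit, with a threshold of 0.05, and the procedure was tested on simulated data. Since a round has 2 RNAs, all rounds share 1 estimate of the spread, and no exact test of 2 against 2 can pass 0.05. The spread of the reference was not measured. Calls against the reference test each round mean against 0.

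Members, gene lists and roles were chosen with earlier results of these data known. Members were given RNA by RNA where all 4 rounds were called on the same side of the reference, or any comparison of rounds was called, together with the other clones of these genes; the rest are summarised by role. All 64 members had the same symbol in a current table of cattle genes. Whether numbers 1 and K pair RNAs across rounds was checked: their deviations correlated above 0.1 in 1 of 6 pairs of rounds. No pairing was assumed in the main fit, although low correlations do not show that RNAs of the same number have no common source. Alternatives covered centring, scaling, dye terms, missing values, single spots and left-out arrays or RNAs. No sequences or genome positions were used.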

Additional observations from a re-analysis of the deposited data

Results flagged for a closer look

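The differences between rounds that passed the test are listed because the same kidney over reference ratio differed between groups of RNAs. For the second CDK3 clone, the round 1 minus round 0 difference was 1.492 and the round 2 minus round 0 difference 1.519 log2 units. For CDK9, the differences from round 0 were -1.556 at round 1, -1.4 at round 2 and -1.296 at round 3. CDC40 differed by -1.464 and CDC5L by -1.592 at round 3. These are 7 calls among 62 members, each set against round 0 at 3 amplified rounds. A search for single outlying RNAs was not possible with 2 replicates a round.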

How the results depend on the processing

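Of 1512 recomputed values of named features against the reference, 1454 stayed on their side of the threshold, 58 fell short of it and 0 changed sign; between rounds these were 84, 63 and 0 of 147. CDC20, MCM4, PCNA, PCLAF and the first KIF3B clone kept all calls under every alternative run, and 11 of the 18 features on 1 side at all rounds did so whichever RNA was left out. Counts of members called moved as follows. Without centring, 16 were above and 7 below at round 0, 3 above at round 1, 11 above and 11 below at round 2, and 13 below at round 3; 0 were higher and 16 lower at round 1 against round 0, 0 and 0 at round 2, and 0 lower at round 3, as the arrays' own medians then enter. With the 16 arrays, a dye term and the RNA as a random block, 10 were above at round 2 and 11 at round 3, and against round 0, 4 were higher and 3 lower at round 1, 4 and 4 at round 2, and 6 and 7 at round 3, with 3 and 1 for round 3 against round 1. Fits of a single round gave 10 below at round 1 and 10 above at round 2, and fits of only the rounds compared gave 0 calls against round 0. Features measured in both orientations gave 2 higher and 3 lower at round 1, 4 lower at round 2 and 1 lower for round 3 against round 1. Requiring 1 replicate a round gave 2 higher at round 1. The first spot alone gave 0 and 0 at round 1, 0 lower at round 2 and 1 lower at round 3, and the second spot 2 higher at round 1 and 0 at round 2. Scaling the arrays gave 2 lower at round 2, and leaving out the round 1, replicate 1, Cy3 array gave 1 lower at round 3. Keeping features with at least 28 of 32 spots and few whole-number ratios, an alternative chosen after seeing the data, gave 3 and 3 at round 1, 2 and 4 at round 2, 5 lower at round 3 and 2 lower for round 3 against round 1. Apart from the effect of fewer features or RNAs in a fit, the cause was not tested.

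Leaving out each RNA in turn gave 5 to 9 above and 13 to 23 below at round 0, 4 to 10 and 11 to 17 at round 1, 4 to 10 and 13 to 20 at round 2, and 5 to 8 and 14 to 23 at round 3. Against round 0 it gave 0 to 1 higher and 0 to 1 lower at rounds 1 and 2, and 0 higher and 0 to 1 lower at round 3. With the replicate number as a replicate block, 2 were lower at round 2. In that limma fit CDC40 at round 3 kept its difference of -1.46 with an adjusted p of 0.0645. Correlations of the deviations between rounds were -0.049 to 0.169. The labels carry the same source name through the rounds, and whether RNAs of the same number share a source was not tested. Signal over background was not analysed here, so that dim features could not be set apart by intensity.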
